A study of Mus musculus with 96 samples.

Results

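The sleep-wake neuromodulator receptors examined here are 10 genes, Npsr1, Hcrtr1, Hcrtr2, Adora1, Adora2a, Drd1, Drd2, Hrh1, Hrh3 and Adra1b, out of 54833 features in the series count table. They were chosen by name, with earlier results of these data known. The rows are those whose Ensembl identifier carries any of these symbols in GENCODE M21, and all 10 were found once. RNA was sequenced from forebrain, cerebellum, liver and kidney of male wild-type C57BL/6 mice aged 6 to 8 weeks. The animals were entrained to 12 h of light and 12 h of darkness, with lights on at 8 a.m., and were then held in constant darkness. Control mice (CON) were left undisturbed, whereas sleep-deprived mice (SD) spent 10 h, from 6 a.m. to 4 p.m., in a slowly turning drum with food and water. Tissues were taken after this, at the next circadian times (CT) 4, 8, 12, 16, 20 and 24, with 2 replicates at each time. This gave 12 CON and 12 SD libraries in each tissue and 96 in all. In SD, circadian time and time since the drum therefore cannot be told apart. All groups carry the same wild-type genotype, and the comparisons were made in whole pieces of tissue, so that fewer cells of a type and less RNA per cell cannot be told apart.

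The libraries held between 24760295 and 58486579 counts assigned to features. Summed marker levels matched the tissue named on each library. Hepatocyte markers summed to at least 71456 CPM (counts scaled to a library total of 1000000) in liver, kidney tubule markers to at least 22592 CPM in kidney, and cerebellar markers to at least 5488 CPM in cerebellum against at most 1443 CPM in forebrain. Pieces of forebrain were not alike, however, because 16 markers of the striatum summed to between 815 and 4681 CPM across the 24 forebrain libraries. In the cerebellum, CON CT8 replicate 1 stood apart, with 3.6% of its counts on features of the antisense type against 0.619 to 1.17% in the other 95 libraries, and the choroid plexus markers ranged from 21.0 to 3286 CPM. Titles and other labels gave different treatments or times in 20 of 24 kidney libraries, where the titles were used.

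All 10 genes encode G protein-coupled receptors for transmitters that set the level of arousal. Orexin, histamine, noradrenaline, dopamine and neuropeptide S promote waking, whereas adenosine accumulates during waking and promotes sleep, in part through the A1 receptor and, in the striatum, through the receptor encoded by Adora2a, which caffeine blocks. The receptors couple to different G proteins, which raise or lower cyclic AMP or release calcium, and cyclic AMP acts on genes through CREB, while the clock proteins CLOCK and BMAL1 act through E-boxes.

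To place these genes next to the letters such factors read, the 250 bases before the RefSeq start sites were searched on both strands for the E-box CACGTG, the cyclic AMP response element TGACGTCA, its shorter form TGACG and a glucocorticoid response element, together with 50 bases after each start. RefSeq promoters on GRCm38.p6 were matched for 9 of the 10 members, with 17 start sites in all. Adora2a had no entry. Npsr1 was the only member with the E-box, which stood in 7.15% of all 32851 promoters, and its first base lay 27 bases before the start. The shorter form was found in Npsr1, with its first base 9 bases before the start on the opposite strand, and in Hcrtr2, where it spans the start site itself, and in 20.8% of all promoters. The full cyclic AMP element and the glucocorticoid element were in 1.79 and 0.475% of all promoters and in none of the 17. A match describes these letters alone, and an absent match says only that they were not in this window. The upstream sequences of Npsr1, Hcrtr2 and Adra1b are shown, the first pair because they carry a motif and Adra1b, at the more upstream of its 2 start sites, because it was the member JTK called rhythmic in liver. Capitals mark the E-box and, as CGTCA or CGTC, the shorter form read on the opposite strand, cut short by the start site in Hcrtr2.
Npsr1, chr9:24097768-24098017, plus strand: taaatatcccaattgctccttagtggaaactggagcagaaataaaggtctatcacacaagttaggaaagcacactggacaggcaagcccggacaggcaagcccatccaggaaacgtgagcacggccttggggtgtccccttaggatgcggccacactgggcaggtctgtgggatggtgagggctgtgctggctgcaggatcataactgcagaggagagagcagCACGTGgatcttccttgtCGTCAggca
Hcrtr2, chr9:76323624-76323873, minus strand: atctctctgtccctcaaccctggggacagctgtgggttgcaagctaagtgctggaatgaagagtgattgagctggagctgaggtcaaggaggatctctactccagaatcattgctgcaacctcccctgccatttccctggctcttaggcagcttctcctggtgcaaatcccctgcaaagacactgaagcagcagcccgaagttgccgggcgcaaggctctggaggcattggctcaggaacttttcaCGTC
Adra1b, chr11:43901238-43901487, minus strand: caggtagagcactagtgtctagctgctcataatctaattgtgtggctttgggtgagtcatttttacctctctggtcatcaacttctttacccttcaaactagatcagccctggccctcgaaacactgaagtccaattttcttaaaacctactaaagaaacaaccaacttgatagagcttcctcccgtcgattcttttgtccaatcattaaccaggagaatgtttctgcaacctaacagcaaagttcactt

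To explore where the receptors were expressed, levels were compared among tissues in CON with edgeR's quasi-likelihood test, with time as a covariate and Benjamini-Hochberg adjustment over all features tested. Forebrain exceeded cerebellum for 9 of the 10 members, while 70.3% of all 26536 features differed between these tissues. Only Adora1 did not pass, at a log2 difference of 0.24 (SE 0.15, adjusted p = 0.155). Npsr1 showed the largest difference of the 10, at 7.62 (SE 0.34, adjusted p = 2.1e-20), followed by Drd1 at 6.80 (SE 0.36), Drd2 at 4.05 (SE 0.48) and Hcrtr1 at 3.16 (SE 0.31). The filter on low counts kept a feature that was high in any tissue, so Npsr1 and Hcrtr1 were tested here through their forebrain level. With 8 counts of Npsr1 in the 12 CON cerebellar libraries, the size of its difference rests on few counts. The smallest called difference was 1.38 (SE 0.23) for Hcrtr2, at 2.60-fold.

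Against liver and kidney, all 10 members differed from forebrain, as did 85.9 and 84.9% of all features. Npsr1, Hcrtr1, Drd2 and Hrh3 in both organs, Drd1 in liver and Hcrtr2 in kidney did not pass the filter within that organ. They were tested here through their level in other tissues. For Adora2a against kidney the log2 difference of 1.25 (SE 0.44, adjusted p = 0.00821) dropped to 0.72 and was not called without forebrain CON CT8 replicate 1 (adjusted p = 0.113). In 9 of 10 members forebrain was higher than liver, whereas Adra1b was higher in liver, at a log2 difference of -2.76 for forebrain minus liver (SE 0.17, adjusted p = 6.77e-20, 6.76-fold). Adra1b encodes the alpha-1B receptor, through which noradrenaline mobilizes glucose in hepatocytes. The contrast for Hcrtr2, at 0.89 in CON (SE 0.23, adjusted p = 0.000368), was -0.04 in the same fit on the SD libraries (SE 0.22, adjusted p = 0.862). Adra1b in CON liver ran from 50.5 to 85.3 CPM with a median of 67.9 CPM, against 7.12, 14.1 and 28.5 CPM as the lowest, median and highest of CON forebrain, and the tissues did not overlap. Npsr1 had no count in any of the 24 liver libraries, which puts its CON forebrain level at least 727-fold higher, and Drd2 had no count in the 12 CON kidney libraries, at least 3173-fold below forebrain. Both bounds set the pooled level of the CON forebrain libraries against a floor of 3 counts over the group, and they cover counting error only. For Drd2 that pooled level was 20.1 CPM, above the CON forebrain median of 5.33 CPM and the minimum of 0.891 CPM. The bound therefore does not describe each forebrain library.

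Between cerebellum and liver all 10 members passed in edgeR, against 87.8% of all features, and 8 in DESeq2, without Npsr1 (adjusted p = 0.0678) and Hcrtr2 (-0.41, adjusted p = 0.0802). Npsr1 had 8 counts in the 12 CON cerebellar libraries and 0 in liver, and it passed the filter on low counts for this contrast through its forebrain level. Hcrtr1, at 56 counts in CON cerebellum and 2 in CON liver, did so as well. For Hcrtr2 the sign of that contrast depended on the scaling, at -0.49 with TMM factors (SE 0.23, adjusted p = 0.047) and 0.25 with library sizes alone (adjusted p = 0.299). In 17 of 48 fits that left out a library, 7 of the cerebellum, 7 of the liver and 3 of the forebrain, this call was lost (log2 difference from -0.49 to -0.37, adjusted p from 0.0501 to 0.116). For Adora2a, at -0.96 (SE 0.42, adjusted p = 0.0332), the call was lost with library sizes alone (adjusted p = 0.617), in the SD libraries (-0.67, adjusted p = 0.0648) and without cerebellum CON CT8 replicate 1, CON CT16 replicate 1 or CON CT16 replicate 2, or liver CON CT4 replicate 1 or CON CT12 replicate 2 (-0.90 to -0.86, adjusted p from 0.0544 to 0.0602). Library sizes alone moved the contrasts between cerebellum and liver by a median of 0.68 over the members. Between cerebellum and kidney 8 members differed, as did 87.1% of features, and Npsr1 (adjusted p = 0.457) and Drd1 (adjusted p = 0.999) did not. Hcrtr1 was called there though below the filter in both tissues alone. Between liver and kidney 8 differed, against 68.6% of features, and Adora2a (adjusted p = 0.707) and Drd2 (adjusted p = 0.467) did not. Npsr1, Hcrtr1 and Hrh3 were among these 8 though below the filter in both organs alone. They had 0, 2 and 3 counts in CON liver and 14, 24 and 51 in CON kidney.

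**Figure D1:**
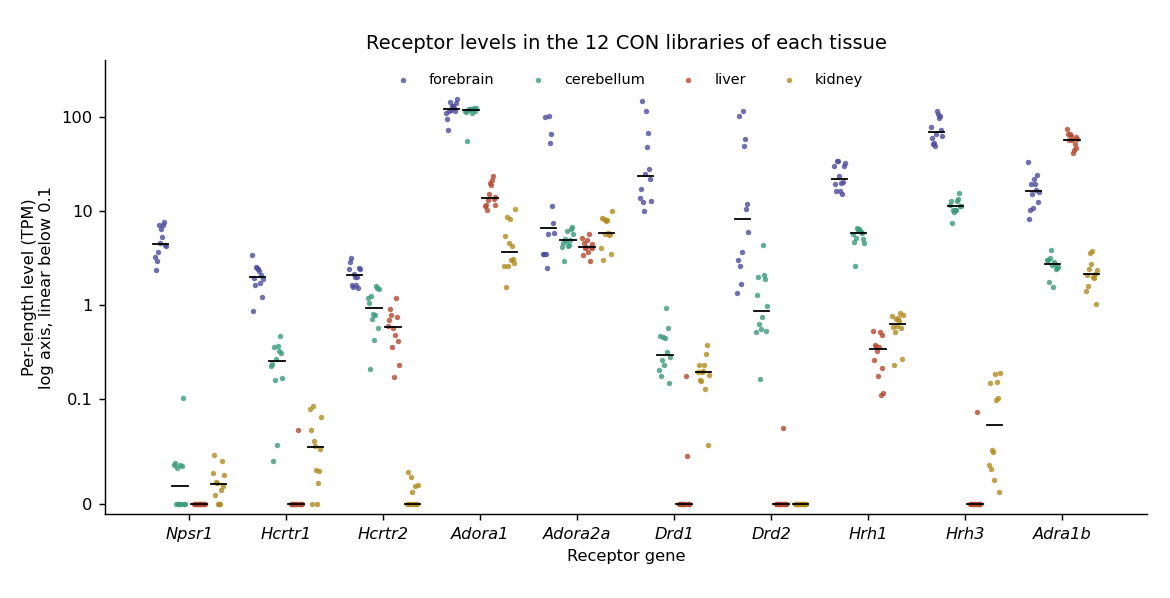
Levels of the 10 receptor genes in CON, in TPM on a log axis that is linear below 0.1, with a point for each of 12 libraries per tissue and a bar at the median. Adora1 sits near 120 TPM in forebrain and cerebellum, Adra1b is highest in liver at a median of 56.9 TPM, and among the forebrain points those of Adora2a, Drd1 and Drd2 spread the most.

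Per transcript length, the order of the members in CON forebrain ran from Adora1, with a median of 120 TPM (counts per exon length, scaled to 1000000 per library), through Hrh3 at 68.3, Drd1 at 23.2, Hrh1 at 21.7, Adra1b at 16.3, Drd2 at 8.20, Adora2a at 6.63, Npsr1 at 4.45 and Hcrtr2 at 2.06 to Hcrtr1 at 1.99 TPM. Neighbors in this order were compared within the 12 libraries by a two-sided exact permutation test on log2(TPM + 0.1), adjusted over 17 pairs in the 4 tissues. Adora1 was above Hrh3 in 12 of 12 libraries (adjusted p = 0.00138), and Npsr1 was above Hcrtr2 in 10 of 12 (adjusted p = 0.00414). Drd1 and Hrh1 (adjusted p = 0.574), Adra1b and Drd2 (adjusted p = 0.452), Drd2 and Adora2a (adjusted p = 0.207), Adora2a and Npsr1 (adjusted p = 0.0526), and Hcrtr2 and Hcrtr1 (adjusted p = 0.606) did not differ beyond their spread. In CON cerebellum, Adora1 led with a median of 118 TPM, followed by Hrh3 at 11.2, Hrh1 at 5.75 and Adora2a at 4.88 TPM, the last pair not separable (adjusted p = 0.363). In CON liver, Adra1b at 56.9 TPM was above Adora1 at 13.6 TPM in 12 of 12 libraries, and Adora1 was above Adora2a at 4.09 TPM in 12 of 12 (adjusted p = 0.00138 for each). In CON kidney, Adora2a at 5.77 TPM led Adora1 at 3.68 TPM in 9 of 12 libraries (adjusted p = 0.00739).

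Npsr1 (ENSMUSG00000043659, chr9:24097996-24316398, plus strand, GRCm38) encodes the receptor for neuropeptide S, a peptide of brainstem neurons that promotes waking and lowers anxiety. To ask whether its daily profile in forebrain changed after sleep deprivation, the level was followed over the 6 times. In CON it was 3.29 and 2.39 CPM at CT4, 3.03 and 3.70 CPM at CT8, and 7.06 and 4.50 CPM at CT12. It then stood at 6.42 and 5.35 CPM at CT16, 7.21 and 7.61 CPM at CT20, and 4.41 and 4.26 CPM at CT24. The CON profile was therefore low at CT4 and CT8 and highest at CT20. In SD it was 6.62 and 6.88 CPM at CT4, 9.54 and 4.48 CPM at CT8, and 3.53 and 3.85 CPM at CT12. It then stood at 3.21 and 5.39 CPM at CT16, 2.51 and 2.12 CPM at CT20, and 3.75 and 3.19 CPM at CT24. The SD profile was highest at CT4 and CT8 and lowest at CT20, both SD libraries lay above both CON libraries at CT4 and CT8, both lay below at CT12, CT20 and CT24, and the groups overlapped at CT16. The share of all features whose 2 SD and 2 CON libraries separate at a time was not counted, here or for the other members.

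At CT20, Npsr1 fell by 1.69 on the log2 scale in SD (SE 0.33, edgeR quasi-likelihood with Benjamini-Hochberg adjustment, adjusted p = 0.0356), a 3.22-fold lower level. It was the only member called at that time, when 526 of 23078 features (2.28%) were. Npsr1 was known from an earlier pass over these same libraries, so this call is no independent support. With each of the 24 libraries left out in turn the difference stayed between -1.80 and -1.57, and the call was lost in 8 of these fits, those without either CON or either SD library of CT20 or of CT24 (adjusted p from 0.0512 to 0.392). The number of features called at CT20 ranged from 0 without SD CT20 replicate 1 and 1 without CON CT20 replicate 2 to 1193 without SD CT20 replicate 2. Some marker lists also separated the CON and SD forebrain pieces of CT20 without overlap, and others did not. Thalamic markers summed to 613 and 520 CPM in CON and 905 and 786 CPM in SD, oligodendrocyte markers to 3336 and 2544 CPM in CON and 4251 and 5697 CPM in SD, and markers of cortex and hippocampus to 2296 and 2635 CPM in CON and 2136 and 2060 CPM in SD. Overlap was seen for striatal markers (2498 and 1126 CPM in CON, 940 and 4681 CPM in SD) and for markers of choroid plexus and of aminergic cells. The thalamic list was not specific to forebrain, at 2708 CPM or more in CON cerebellum against at most 1036 CPM in CON forebrain. The part of these markers in the Npsr1 difference was not tested. At CT4 the difference was 1.24 (SE 0.33, unadjusted p = 0.00159 and adjusted p = 1.0 in edgeR) and at CT8 it was 1.10 (SE 0.32, unadjusted p = 0.00356, adjusted p = 0.715). Averaged over the 6 times the difference was -0.13 (SE 0.26, adjusted p = 0.926), and the early and late differences had opposite signs. In the test of any difference over the 6 times, Npsr1 had an adjusted p of 0.174 in edgeR, where no feature passed (0.0% of 23078, 2743 at an unadjusted p under 0.05), and 936 features including Npsr1 passed in DESeq2. Without SD CT20 replicate 2, edgeR called 106 features and no member.

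A 24 h cosine curve put the peak of Npsr1 at CT17.32 in CON and at CT7.15 in SD, a shift of -10.17 h. In SD, such a peak cannot separate circadian time from time since the drum. The ratio of the fitted peak to the trough was 2.56 in CON and 2.51 in SD. The test of a difference between the curves ranked Npsr1 at 1 of 23078 features (unadjusted p = 1.15e-05, adjusted p = 0.266 in edgeR), and no feature passed (0.0%, 1390 at an unadjusted p under 0.05). An earlier pass over these same data had already given Npsr1 the smallest p in this test, so its rank and p are no independent support. The same holds for the calls of Npsr1 by other tools and settings, which use the same libraries. DESeq2 called 5 features and Npsr1 among them (adjusted p = 9.04e-05), and edgeR without a filter on low counts called Npsr1 alone (adjusted p = 0.0195). Without SD CT16 replicate 2, edgeR called Npsr1 as well (adjusted p = 0.00971), and in the other 23 fits that left out a library it did not (adjusted p up to 0.885). Within each condition, JTK, a rank test for 24 h cycles run on CPM, gave Npsr1 an adjusted p of 0.561 in CON and 0.958 in SD, with 0.0% of features called in either, 1277 and 722 of them at an unadjusted p under 0.05, and 23 and 1 called by a cosine curve in edgeR. Neither curve of Npsr1 was called in edgeR (adjusted p = 0.0793 in CON and 0.321 in SD). Across the 24 forebrain libraries, Npsr1 and the summed striatal markers had no called correlation (Pearson r = 0.045, permutation p = 0.833, Spearman rho = 0.0635, permutation p = 0.77), and with those markers as a covariate, a setting chosen after seeing the data, its rhythm difference had an adjusted p of 0.198.

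**Figure D2:**
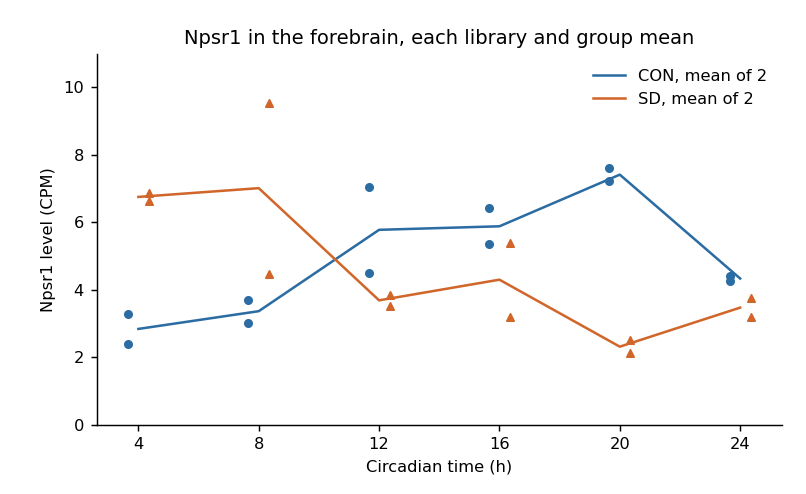
Npsr1 level in forebrain in CPM against circadian time in h, with a point for each library (circles CON, triangles SD, set slightly to either side of the time) and lines through the means of 2. The CON line climbs to 7.21 and 7.61 CPM at CT20, where the SD libraries hold 2.51 and 2.12 CPM, and the order is the other way round at CT4 and CT8.

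The orexin receptors Hcrtr1 (ENSMUSG00000028778, chr4:130130217-130139359, minus strand) and Hcrtr2 (ENSMUSG00000032360, chr9:76225880-76323856, minus strand) bind the hypothalamic peptides whose loss causes narcolepsy, and it is Hcrtr2 that histamine neurons carry. In forebrain, Hcrtr2 had 2.36, 3.23 and 5.10 CPM as the lowest, median and highest of CON and 2.28, 2.71 and 4.56 CPM in SD. Both conditions overlapped except at CT4, where CON held 3.81 and 4.54 CPM and SD 2.28 and 2.49 CPM. That difference was -0.81 on the log2 scale (SE 0.31, unadjusted p = 0.019, adjusted p = 1.0 in edgeR). The fitted peak of Hcrtr2 was at CT3.83 in CON and CT20.27 in SD, and the difference between the curves had an adjusted p of 0.82 (unadjusted p = 0.0165). Hcrtr1 ran from 0.583 to 2.30 CPM in CON and from 0.639 to 3.16 CPM in SD, at an averaged log2 difference of 0.14 (SE 0.23, adjusted p = 0.911).

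None of the 10 members was called for the averaged effect of sleep deprivation in forebrain by edgeR or DESeq2, and none had an unadjusted p under 0.05. Of all 23078 features, 7 (0.0303%) passed in edgeR and 17 in DESeq2. The median log2 difference was 0.11 over the members and 0.00 over all features.

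Drd1, Drd2 and Adora2a mark the medium spiny neurons of the striatum. Drd1 (ENSMUSG00000021478, chr13:54051183-54055705, minus strand) is the dopamine receptor of the direct pathway and raises cyclic AMP. Drd2 (ENSMUSG00000032259, chr9:49340627-49408177, plus strand) lowers it in the indirect pathway, whose neurons also carry Adora2a (ENSMUSG00000020178, chr10:75316877-75334784, plus strand). In forebrain, Drd2 had 0.891, 5.33 and 75.5 CPM as the lowest, median and highest of CON and 1.01, 18.3 and 86.4 CPM in SD. Adora2a had 1.95, 5.20 and 79.1 CPM in CON and 2.90, 17.5 and 84.1 CPM in SD. Drd1 had 9.19, 21.4 and 139 CPM in CON and 10.0, 33.0 and 124 CPM in SD. Replicates of the same time differed as widely as the conditions did, such that at CT8 the CON libraries held 67.4 and 1.71 CPM of Drd2 and at CT20 the SD libraries held 2.75 and 86.4 CPM.

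The averaged differences were 1.17 for Drd2 (SE 0.73, adjusted p = 0.789), 0.75 for Adora2a (SE 0.62, adjusted p = 0.822) and 0.41 for Drd1 (SE 0.46, adjusted p = 0.863), none larger than the spread between libraries. These 3 genes moved with the summed level of 16 striatal markers, which had medians of 1065 CPM in CON and 1625 CPM in SD and ranges that overlapped. Over the 24 libraries the correlation was r = 0.971 for Adora2a, 0.966 for Drd1 and 0.949 for Drd2, and Spearman's rho was 0.941, 0.894 and 0.913 (permutation p = 1e-05 in each, the smallest that 100000 permutations can give, adjusted p = 4e-05 over 12 relations). Without the 2 libraries farthest from the median the r values were 0.971, 0.957 and 0.947, and within CON and SD alone they lay between 0.947 and 0.978. With the striatal markers as a covariate, a setting chosen after seeing the data, the averaged log2 difference was 0.30 for Drd2 (SE 0.27), 0.12 for Adora2a (SE 0.19) and -0.05 for Drd1 (SE 0.12), and none was called. The striatal list was not specific to forebrain, at 844 to 1047 CPM in CON cerebellum against a lowest sum of 815 CPM in CON forebrain. Whether dissection set these levels was not tested.

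**Figure D3:**
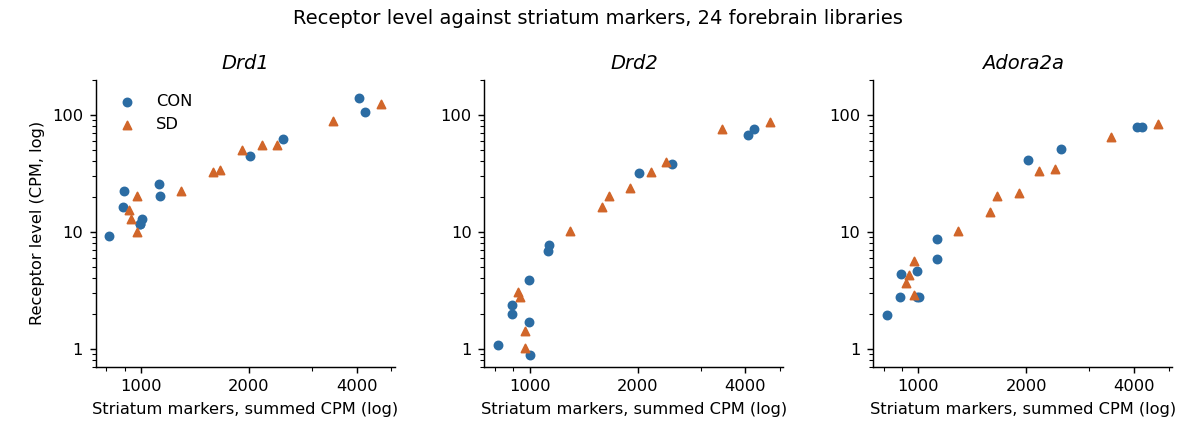
Levels of Drd1, Drd2 and Adora2a in CPM against the summed CPM of 16 striatal markers in the 24 forebrain libraries, both axes on a log scale (circles CON, triangles SD). In each panel CON and SD libraries lie along the same band, from 815 to 4681 CPM of the markers.

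Adora1 (ENSMUSG00000042429, chr1:134199223-134235431, minus strand) encodes the A1 receptor, by which adenosine quiets wake-promoting neurons. In forebrain it had 108, 177 and 228 CPM as the lowest, median and highest of CON and 122, 192 and 244 CPM in SD, with an averaged log2 difference of 0.05 (SE 0.08, adjusted p = 0.917). Its exons share 1162 bases with Mybph on the opposite strand, which strand-specific counting separates. Hrh1 (ENSMUSG00000053004, chr6:114397936-114483296, plus strand), the receptor through which histamine wakes and antihistamines sedate, had 17.3, 24.5 and 38.8 CPM in CON and 18.2, 28.2 and 48.1 CPM in SD (log2 difference 0.00, SE 0.16, adjusted p = 0.998). Hrh3 (ENSMUSG00000039059, chr2:180099465-180104488, minus strand), the autoreceptor that restrains histamine release, had 39.3, 54.6 and 92.0 CPM in CON and 44.2, 63.2 and 84.6 CPM in SD (0.09, SE 0.14, adjusted p = 0.901).

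In CON, Hrh3 had 41.9 and 42.3 CPM at CT8 and 86.0 and 92.0 CPM at CT16, whereas SD held 56.0 and 63.9 CPM at CT8 and 52.0 and 70.9 CPM at CT16. Both conditions were separate at these times in opposite directions. Over the 6 times, SD lay above CON at 2, below it at 1 and overlapped it at 3. The share of all features that separate was not counted, and no rhythm of Hrh3 was called. Its level was correlated with the striatal markers (r = 0.574, permutation p = 0.00335, rho = 0.631, permutation p = 0.00121, adjusted p = 0.00804 for r), with r = 0.425 when the 2 farthest libraries were left out. Hrh1 showed the opposite sign (r = -0.598, permutation p = 0.00238, rho = -0.481, permutation p = 0.019, adjusted p = 0.00714 for r, and r = -0.501 without the 2 farthest). Adra1b (ENSMUSG00000050541, chr11:43774606-43901210, minus strand) had 7.12, 14.1 and 28.5 CPM in CON forebrain and 10.2, 14.2 and 30.0 CPM in SD (log2 difference 0.18, SE 0.22, adjusted p = 0.872), and its groups overlapped at all 6 times.

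**Figure D4:**
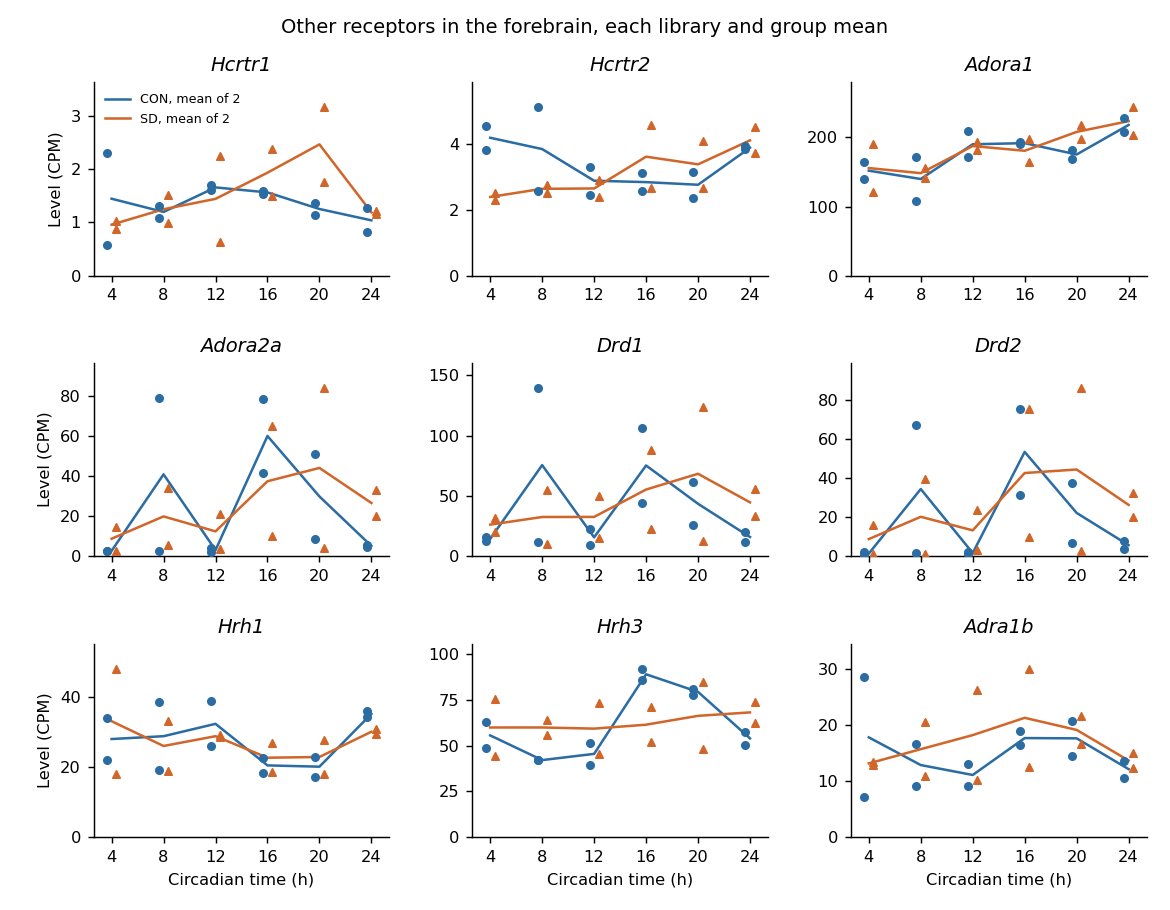
Levels of the other 9 receptors in forebrain in CPM against circadian time in h, with a point for each library (circles CON, triangles SD, set slightly to either side of the time) and lines through the means of 2. Replicates of Adora2a, Drd1 and Drd2 lie far apart at CT8 and CT20, and Hrh3 is highest in CON at CT16, at 86.0 and 92.0 CPM.

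In the cerebellum, 8 of the 10 members passed the filter on low counts, and Npsr1 and Hcrtr1 did not. No member was called for the averaged effect, and none of 22218 features was (0.0%, 757 at an unadjusted p under 0.05, 1 called by DESeq2). The same held for any difference over the 6 times (0.0%, 2036 at an unadjusted p under 0.05, 244 by DESeq2 with no member, and 8901 in edgeR, Hcrtr2 and Drd2 among them, without CON CT8 replicate 2) and for the rhythm difference (0.0%, 2248 at an unadjusted p under 0.05, 12 by DESeq2 with no member). Without CON CT8 replicate 1 in its place, 36 features and no member passed. At CT8 alone, the time that holds this odd library, edgeR called 2281 of 22218 features (10.3%) and DESeq2 called 3090. No member was among them. Adora1 had 121, 172 and 180 CPM in CON and 141, 168 and 182 CPM in SD, the narrowest relative range of the members in any tissue. Drd2 had 0.102, 0.549 and 2.83 CPM in CON and 0.175, 0.544 and 5.24 CPM in SD. The highest value came from SD CT4 replicate 2, which was also the highest of the 24 cerebellar libraries for Hcrtr1 at 0.937 CPM, Hcrtr2 at 2.62 CPM, Hrh3 at 13.3 CPM, Adra1b at 3.75 CPM and Npsr1 at 0.194 CPM. The 9 markers of midbrain and brainstem aminergic cells summed to 19.7 CPM in that library and to 28.4 CPM in CON CT8 replicate 1, where Hcrtr2 had its lowest level of the 24, 0.485 CPM, and to 6.30 to 17.6 CPM in the other 22 libraries. Their part in these values was not tested. JTK called no feature in the cerebellum in either condition (0.0%, 638 CON and 860 SD profiles with an unadjusted p below 0.05, 1 and 21 called by a cosine curve in edgeR), and no member was called by either.

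The effect of sleep deprivation averaged over time was set against that in forebrain in a single edgeR fit. No member differed between the tissues, nor did any of 24219 features (0.0%, 1155 at an unadjusted p under 0.05, 1 by DESeq2), and the widest difference among the members was that of Drd2, at 1.19 (SE 1.01, adjusted p = 0.86).

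To explore the receptors outside the brain, the same tests were run in liver, where 5 members passed the filter, Hcrtr2, Adora1, Adora2a, Hrh1 and Adra1b. Adora2a fell and Hcrtr2 rose in SD over the 6 times, 2 of 5 members tested, while 3592 of 19708 features (18.2%) were called. Adora2a, which on leukocytes and vessels restrains inflammation, had 3.08, 4.57 and 5.87 CPM in CON and 2.47, 3.31 and 4.21 CPM in SD. Both SD libraries lay below both CON libraries at 5 of the 6 times, read on CPM. The share of all features separated in this way was not counted. Scaling by library sizes alone, as CPM does, moved the averaged differences of the members in liver by a median of -0.13 against TMM factors. Averaged over time, the log2 difference was -0.33 (SE 0.09, edgeR adjusted p = 0.0156), a 1.26-fold lower level. Leukocyte markers also differed, with 6 of them summing to 302 to 525 CPM in CON and 179 to 281 CPM in SD, without overlap. The 5 endothelial markers summed to 250 to 311 CPM in CON (median 268 CPM) and 211 to 264 CPM in SD (median 234 CPM), with overlap. Within CON the correlation of Adora2a with the summed leukocyte markers was r = 0.211 (permutation p = 0.512, rho = 0.133, permutation p = 0.684, n = 12), and within SD it was r = 0.691 (permutation p = 0.013, adjusted p = 0.026, rho = 0.559, permutation p = 0.0622, n = 12). No correlation with the endothelial markers was computed. Without the 2 libraries farthest from the median r was 0.534 and 0.751, and the part of leukocytes and endothelium in the difference was not tested.

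Hcrtr2 in liver had 0.483, 1.26 and 2.50 CPM in CON and 0.947, 1.93 and 3.27 CPM in SD, from 16 to 123 counts per library. SD lay above CON at CT12, CT16 and CT24, below it at CT8, and overlapped it at CT4 and CT20. Averaged over time, the log2 difference was 0.74 (SE 0.25, edgeR adjusted p = 0.0433), a 1.67-fold higher level. With library sizes alone, which moved the averaged differences in liver by a median of -0.13, it was 0.61 and no longer passed (adjusted p = 0.0867). The call was also lost in 15 of 24 fits that left out a library (log2 difference from 0.63 to 0.76, adjusted p up to 0.0855), namely those without CON CT4 replicate 1, CON CT20 replicate 2, SD CT4 replicate 2, SD CT16 replicate 2, SD CT20 replicate 2, or any library of CON CT12, CON CT16, CON CT24, SD CT12 or SD CT24. Adora2a kept its call in all 24. Hrh1 had 0.173, 0.544 and 0.814 CPM in CON and 0.0284, 0.303 and 0.593 CPM in SD (log2 difference -0.61, SE 0.29, adjusted p = 0.157). In the edgeR test over the 6 times no member passed, while 702 features (3.56%) did, and Hcrtr2 came nearest (adjusted p = 0.0594). DESeq2 called Hcrtr2 alone of the members in that test (adjusted p = 0.000598), among 2017 features.

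Adra1b in liver varied over the 24 h sampled, with rhythm calls that depended on the test. In CON it was highest at CT4, at 85.3 and 76.6 CPM, and lowest at CT16 and CT20, at 64.5, 50.5, 59.5 and 55.4 CPM. In SD it was highest at CT8, at 76.8 and 84.8 CPM, and lowest at CT20, at 40.8 and 46.6 CPM. JTK called Adra1b rhythmic in SD (adjusted p = 0.0426, 347 of 19708 features or 1.76% called) and did not pass it in CON (adjusted p = 0.305, 29 features or 0.147% called). When CPM was scaled by TMM factors the SD call was lost. The cosine curve in edgeR passed in both conditions (adjusted p = 0.0133 in CON and 7.73e-05 in SD, with 8.87 and 11.0% of features called), with peaks at CT5.04 and CT6.39 and peak-to-trough ratios of 1.55 and 2.02. The difference between the curves was not called (unadjusted p = 0.0149, adjusted p = 1.0), as for all features (0.0%, 722 at an unadjusted p under 0.05, 4 by DESeq2 with no member).

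Adora1 in liver passed the cosine curve in both conditions as well (adjusted p = 0.0196 in CON and 0.0488 in SD) and not JTK (adjusted p = 0.196 and 0.19). Its level in CON went from 22.3 and 23.1 CPM at CT4 to 41.3 and 51.2 CPM at CT16, and in SD it went from 15.2 and 17.8 CPM at CT24 to 35.3 and 37.9 CPM at CT16. Fitted peaks stood at CT16.61 in CON and CT14.76 in SD, later than those of Adra1b in both. Averaged over time, Adora1 differed by -0.13 in SD (SE 0.09, edgeR adjusted p = 0.308), and with library sizes alone by -0.27, where it passed (adjusted p = 0.0303). The remaining members were close to absent, with Npsr1 at 0 in all 24 libraries, Drd2 at 0 in 23, Drd1 at 0 in 21, Hcrtr1 at 0 in 20 and Hrh3 at 0 in 19.

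**Figure D5:**
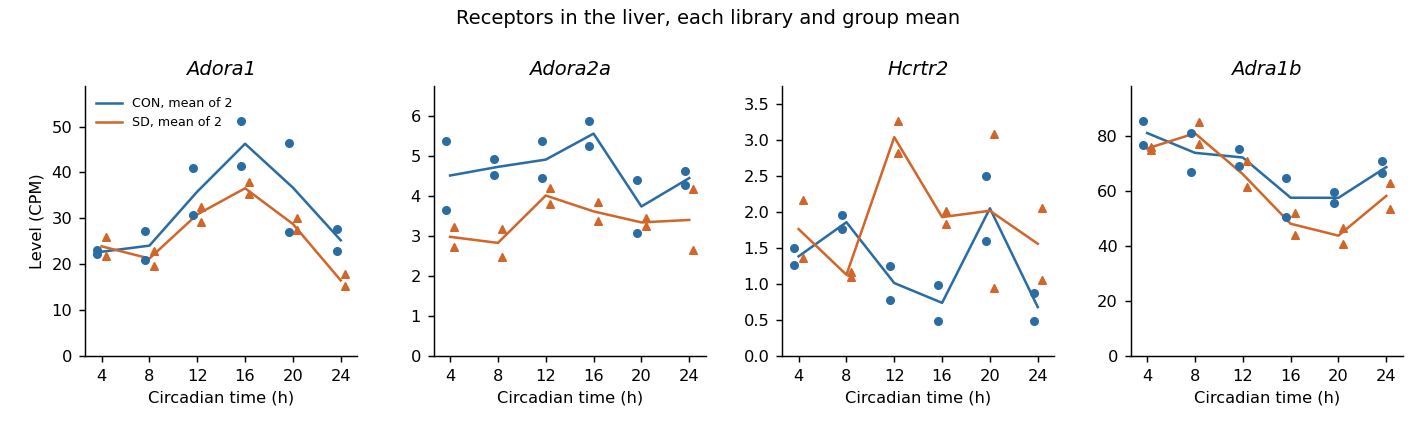
Levels of Adora1, Adora2a, Hcrtr2 and Adra1b in liver in CPM against circadian time in h, with a point for each library (circles CON, triangles SD, set slightly to either side of the time) and lines through the means of 2. Adora2a is lower in SD at 5 of 6 times without overlap on CPM, and the share of all features so separated was not counted. Adora1 is highest at CT16, and Adra1b is highest at CT4 in CON and CT8 in SD.

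In kidney, 5 members passed the filter, Adora1, Adora2a, Drd1, Hrh1 and Adra1b, and none was called for the averaged effect, while 495 of 21528 features (2.3%) were. Adora1, which in kidney constricts the afferent arteriole, had 5.55, 8.42 and 20.2 CPM in CON and 6.22, 11.3 and 22.7 CPM in SD (log2 difference 0.27, SE 0.23, adjusted p = 0.657). Adora2a had 5.49, 7.38 and 10.2 CPM in CON and 5.78, 7.63 and 11.8 CPM in SD (0.04, SE 0.09, adjusted p = 0.882). Drd1, which promotes sodium excretion, had 0.158, 0.263 and 0.462 CPM in CON and 0.120, 0.286 and 0.397 CPM in SD. No member passed the test over the 6 times, in which 156 features (0.725%) did, nor the rhythm difference, in which none did (0.0%, 874 at an unadjusted p under 0.05, 0 by DESeq2). JTK called 34 features in CON (0.158%) and 0 in SD (0.0%, although 1586 had an unadjusted p below 0.05, and 475 by a cosine curve in edgeR), and no member was among them. These groups rest on the library titles.

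The other genes of these transmitter systems were grouped by role, and their calls are to be read against the 18.2% of all features called for the averaged effect in liver and the 2.3% called in kidney, beside the lower leukocyte markers of SD liver. Among 14 genes for ligands and their synthesis, 2 of 6 tested in liver were lower in SD, Entpd1, which breaks down extracellular ATP, at -0.51 (SE 0.08) and Hdc, which makes histamine, at -0.31 (SE 0.10). Among 15 genes for uptake, storage and clearance, 2 of 12 tested in liver were higher, the adenosine kinase Adk at 0.31 (SE 0.06) and the adenosine transporter Slc29a1 at 0.25 (SE 0.06). Of 15 other receptors for the same ligands, 7 were tested in liver, where Adra1a was higher at 0.56 (SE 0.10) and Hrh2 lower at -0.84 (SE 0.24). Of 20 serotonin and acetylcholine receptors, 1 of 9 tested in liver was lower, Chrna4 at -1.60 (SE 0.36). Of 25 signaling genes downstream, 3 of 23 tested in liver were called, Ppp1r1b at 0.35 (SE 0.10), Arrb2 at -0.38 (SE 0.08) and Grk2 at -0.20 (SE 0.06). In kidney, Arrb2 alone of these lists was called, at -0.25 (SE 0.05). In forebrain and cerebellum none was called for the averaged effect, and at CT20 in forebrain the downstream list held 3 calls of 25, against 2.28% of all features, a number that ranged from 0 to 1193 features with a library left out. They were Gnb5 at 1.14 (SE 0.27), Plcb1 at 0.59 (SE 0.12) and Prkaca at -0.34 (SE 0.08).

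Between forebrain and cerebellum in CON, 16 of 19 tested serotonin and acetylcholine receptors were higher in forebrain and 1 lower, with a median log2 difference of 3.60, against 0.09 over all features, of which 70.3% were called. Of 14 other receptors for the members' ligands, 10 were higher and 3 lower, with a median of 1.69. Adrb1 was among the higher, at 3.12 (SE 0.17).

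The genes whose profile over the 24 forebrain libraries lay nearest to each member, by Pearson correlation on log2 CPM, are given as a description, since the libraries share their dissection and depth. For Drd2 they were Sh3rf2 (r = 0.983) and Adora2a (r = 0.975), for Adora2a they were Drd2 and Sh3rf2 (r = 0.974), and for Drd1 they were Adcy5 (r = 0.977), Gng7 and Gpr6 (r = 0.972 each). Hrh1 lay nearest to Etv6 (r = 0.946) and Adra1b to Rph3a (r = 0.921). Adora1 lay nearest to Gm37176 (r = 0.9) and Nr3c1, the glucocorticoid receptor (r = 0.888). Hcrtr1 lay nearest to Rxfp2 (r = 0.832), Hcrtr2 to Nebl (r = 0.768) and Hrh3 to Gm17180 (r = 0.865), which overlaps it by 349 exon bases on the opposite strand. Npsr1 had the weakest nearest gene, Gm14198 (r = 0.679), and among the members its lowest correlation was with Hcrtr2 (r = -0.617).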

How the data were processed

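Total RNA was sequenced with a stranded protocol. Per the labels and the methods, the authors trimmed reads with Trim Galore 0.6.4, aligned them to GRCm38 with HISAT2 2.1.0 in strand-specific mode, kept pairs of mapping quality 60 with Samtools 1.9 and counted pairs on the reverse strand with featureCounts 1.6.4, and they deposited raw counts per feature for each library. The annotation release is not given in the sources used here. Symbols were taken from GENCODE M21, and features without one stayed in library sizes and tests. The methods state 2 biological replicates per group.

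Counts were tested with edgeR 4.0.16 in R 4.3.3 by the quasi-likelihood test, with TMM factors, the default filter on low counts and Benjamini-Hochberg adjustment over all features tested in a tissue (threshold 0.05). The models held time and condition, cosine terms of a 24 h period for rhythm, and tissue with time for levels. Log2 CPM for correlations used a pseudocount of 0.5 CPM. JTK was computed on CPM with 6 phases and a 24 h period. The edgeR fits and JTK were also run on simulated data with independent libraries and no differences in dissection. Those runs cannot show how the tests behave with the differences between pieces seen here. Counting limits the precision of low members, so that floors take 3 counts. Alternatives were DESeq2 1.42.0, library sizes alone, no filter, a replicate block and each library left out. No pairing of CON with SD samples by replicate number is stated, and none was used in the main fits. The correlations of same-numbered CON and SD libraries in a tissue ran from -0.355 to 0.461, which does not settle it. Whether tissues of this experiment came from the same animals is not stated, and the main tissue fits treated libraries as independent. Between same-numbered CON libraries of liver and kidney the correlations ran from 0.0371 to 0.194, and between other tissues from -0.0545 to 0.0965. The named genes were the members and, from the pathway lists, those called, at most 5 in each direction. The members and lists were chosen with earlier results of these data known.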

Additional observations from a re-analysis of the deposited data

How the results depend on the processing

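Each condition has 2 libraries at a time, counts limit the members at low level, and the kidney groups rest on titles. Adora2a lower in SD liver held under every setting run. Where a call was lost or gained, the cause was not tested. All planned settings were run, and the striatal marker covariate was added after seeing the data.

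Whether replicate numbers pair CON with SD libraries was not settled. The deviations of same-numbered CON and SD libraries correlated over 0.1 at 2 of 6 times in forebrain and 3 in cerebellum. They did so at 2 in liver and 4 in kidney, and some other times gave negative values. With a replicate block, the features called were 851 at CT20 in forebrain and 443 in the liver test over the 6 times, 1 member stayed called in the averaged liver effect (Hcrtr2 had an adjusted p of 0.0707 in edgeR), Hcrtr2 between cerebellum and liver was at -0.49 (adjusted p = 0.0557), and small uncalled differences turned sign, at 0.0102 for Drd2 in cerebellum and 0.1064 for the Hcrtr1 forebrain-minus-cerebellum effect.

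With DESeq2, the features called were 17 for the averaged effect in forebrain and 1 in cerebellum, 1700 at CT20 in forebrain, 5 (1 of them a member), 12 and 4 for the rhythm difference in forebrain, cerebellum and liver, 936 (1 member), 244, 2017 (1 member, Hcrtr2) and 694 for the test over the 6 times in forebrain, cerebellum, liver and kidney, and 1 for the forebrain-minus-cerebellum effect. Without a filter on low counts they were 1 for the averaged effect in cerebellum and 1043 in kidney, and 1 (a member), 409 and 38 for the rhythm difference in forebrain, liver and kidney. With library sizes alone they were 186 at CT20 in forebrain, and 1151 in liver and 53 in kidney over the 6 times. Rhythm within a condition, by a cosine curve in place of JTK, gave 23 features in CON and 1 in SD in forebrain, 1 and 21 in cerebellum, 1749 and 2173 in liver with 2 members in each, and 845 and 475 in kidney. JTK on CPM scaled by TMM factors called 0 in CON liver, 135 and 0 members in SD liver, and 0 in CON kidney.

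Other signs turned as well. For Hrh1 in forebrain the log2 difference was 0.003701 with library sizes alone, 0.001777 without the filter, 0.004308 in DESeq2 and 0.068 with the striatal covariate, which put Drd1 at -0.048. In cerebellum, library sizes alone gave 0.005408 for Adora1, 0.001355 for Adora2a, 0.002933 for Drd2 and 0.002737 for Hrh3, and no filter gave 0.003391 for Adora1. For the forebrain-minus-cerebellum effect, DESeq2 gave 0.04539 for Hcrtr1 and library sizes alone -0.003947 for Adra1b. Hcrtr2 turned to -0.041 between forebrain and liver in the SD libraries and to 0.25 between cerebellum and liver with library sizes alone.

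With each library left out in turn, features called ranged from 3 to 9 for the averaged effect in forebrain, 0 to 1193 at CT20, 0 to 106 over the 6 times and 0 to 1 for the rhythm difference there (0 to 1 members), and 0 to 8901 over the 6 times in cerebellum (0 to 2 members). Members called for the averaged effect in liver ranged from 1 to 2, and calls of a member at a single time from 0 to 1 in forebrain and 0 to 2 in cerebellum. Averaged differences that crossed 0 ranged from -0.11 to 0.079 for Hrh1 in forebrain. In cerebellum they ranged from -0.19 to 0.007608 for Hcrtr2, -0.027 to 0.027 for Adora1, -0.035 to 0.041 for Adora2a, -0.43 to 0.29 for Drd2 and -0.051 to 0.029 for Hrh3. In kidney they ranged from -0.011 to 0.085 for Adora2a, -0.16 to 0.070 for Drd1 and -0.026 to 0.086 for Adra1b. The forebrain-minus-cerebellum effect ranged from -0.18 to 0.45 for Hcrtr1, -0.13 to 0.072 for Hcrtr2, -0.25 to 0.40 for Drd1, -0.042 to 0.15 for Hrh1 and -0.14 to 0.19 for Adra1b.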

Other observations

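Counts of the receptors that are near absence in liver were not spread evenly. The single library CON CT16 replicate 2 held 7 of the 9 Drd1 counts, both Drd2 counts, both Hcrtr1 counts and all 3 Hrh3 counts of the 12 CON liver libraries, and SD CT16 replicate 1 held 7 of the 10 Hrh3 counts of the 12 SD libraries. In kidney, Hcrtr2 had no count in 15 of 24 libraries and Drd2 none in 20 of 24.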
